A study of Mus musculus with 3 samples.

Results

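The level of 10 tetraspanin genes was measured by RNA-seq in melan-a, a line of immortalized mouse melanocytes. The genes were taken by symbol from a list of named family members, *Cd63*, *Cd9*, *Cd81*, *Cd82*, *Cd151*, *Cd37*, *Cd53*, *Tspan3*, *Tspan4* and *Tspan10*. The list does not depend on a threshold of level, but it was chosen with earlier results of these data known. All 10 were found among the 22698 Ensembl genes of the files. The 3 samples, labelled replicates 1, 3 and 4 and described by the submitters as biological replicates, form a single untreated group. They share the strain background C57BL/6J, an origin labelled Ink4a-ARF-/- and a medium with 10% fetal bovine serum, 200 nM of the phorbol ester 12-O-tetradecanoylphorbol 13-acetate and 200 pM cholera toxin. The line was derived from cultured pigment cells and grows under these mitogens, so it stands for melanocytes in such a medium rather than in skin. There is no second condition, and the comparisons are therefore between genes within the same libraries.

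Tetraspanins are small membrane proteins that cross the lipid bilayer repeatedly and expose a short and a long loop to the outside. They gather integrins, immunoglobulin-type proteins and proteases into membrane microdomains, and several are standard markers of exosomes and late endosomes. In pigment cells CD63 sorts the fibril-forming protein PMEL on its way into the melanosome, and TSPAN10, also called oculospanin, is known from melanocytes and the retinal pigment epithelium.

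RefSeq lists promoter windows for all 10 genes (build GRCm38.p6). The 250 bases before the annotated start are shown for 5 of them, namely the member with the highest level, the member with the lowest level and the 3 members whose window holds CATGTG, the E-box form bound by MITF in pigmentation genes. Capitals mark CATGTG or its reverse complement, extended to TCATGTGA where the flanking letters also fit.
Cd81, chr7:143052500-143052749, plus strand: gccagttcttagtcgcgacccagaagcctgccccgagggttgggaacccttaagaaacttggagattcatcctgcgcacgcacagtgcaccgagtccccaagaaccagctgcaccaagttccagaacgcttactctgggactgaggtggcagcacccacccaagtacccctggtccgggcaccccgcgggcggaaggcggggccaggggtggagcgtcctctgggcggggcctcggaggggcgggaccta
Cd9, chr6:125494761-125495010, minus strand: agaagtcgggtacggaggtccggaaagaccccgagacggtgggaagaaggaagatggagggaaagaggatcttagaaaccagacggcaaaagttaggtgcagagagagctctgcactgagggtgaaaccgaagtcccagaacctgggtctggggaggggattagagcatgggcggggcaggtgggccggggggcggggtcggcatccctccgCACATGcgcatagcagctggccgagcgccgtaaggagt
Tspan3, chr9:56161071-56161320, minus strand: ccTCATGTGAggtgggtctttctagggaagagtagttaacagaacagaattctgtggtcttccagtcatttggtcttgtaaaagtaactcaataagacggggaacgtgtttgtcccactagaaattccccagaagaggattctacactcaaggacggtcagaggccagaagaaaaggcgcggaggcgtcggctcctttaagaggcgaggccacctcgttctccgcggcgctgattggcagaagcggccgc
Tspan10, chr11:120442381-120442630, plus strand: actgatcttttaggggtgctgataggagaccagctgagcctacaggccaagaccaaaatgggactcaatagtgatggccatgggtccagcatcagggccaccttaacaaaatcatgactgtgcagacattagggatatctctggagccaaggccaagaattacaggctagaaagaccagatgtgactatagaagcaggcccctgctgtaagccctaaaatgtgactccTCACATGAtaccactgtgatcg
Cd53, chr3:106790150-106790399, minus strand: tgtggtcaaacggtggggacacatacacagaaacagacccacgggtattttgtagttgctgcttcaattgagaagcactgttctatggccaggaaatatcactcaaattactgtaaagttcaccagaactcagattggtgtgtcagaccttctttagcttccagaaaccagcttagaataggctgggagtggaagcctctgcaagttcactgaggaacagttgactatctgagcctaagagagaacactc
Both strands were searched in every window, and a gene was counted when any of its windows matched. CATGTG was present at 3 of the 10 members (*Cd9*, *Tspan3*, *Tspan10*) and at 13.8% of 27025 genes. The longer TCATGTGA, which contains CATGTG and was added after the windows had been seen, was present at 2 members (*Tspan3*, *Tspan10*) and at 0.984% of all genes. In *Tspan10* it lay 22 to 15 bases before the start, and in *Tspan3* 248 to 241 bases before it. Another E-box form, CACGTG, was present at *Cd37* and *Tspan4* and at 6.86% of all genes. Their windows are not shown, and no longer form of CACGTG was searched. GCCNNNGGC, the palindrome recognised by TFAP2 factors, was present at *Cd82*, *Cd151* and *Tspan4* and at 15.4% of all genes. It occurred 3 times in the 2 windows of *Cd151*. These 3 genes were also the only members with more than 1 window, 4 for *Cd82* and 2 each for *Cd151* and *Tspan4*. Over all 27025 genes there were 32851 windows. A gene with more windows had more chances of a match. The GC box GGGCGG was present at 6 members (*Cd9*, *Cd81*, *Cd82*, *Cd151*, *Cd37*, *Tspan4*) and at 35.4% of all genes, and the TATA box TATAAA at none of the 10 and at 14.3% of all genes. These are matches of letters, and binding was not examined here. The paper profiled TFAP2A binding in melan-a cells by ChIP-seq, and those data were not used for these windows.

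The unit is FPKM, in which a read count is divided by gene length and by a library size adjusted with TMM (trimmed mean of M values), so levels of different genes can be set side by side. The values summed to between 358891 and 394507 FPKM per replicate. The scaled library size, estimated from low values that fall on whole reads, was between 47000000 and 66300000 reads. All 9 melanocyte markers examined, among them *Tyr*, *Dct* and *Sox10*, were at 14.5 FPKM or more on average, and all keratinocyte, fibroblast and endothelial markers examined were below 1 FPKM in every replicate. *Cdkn2a*, the gene that encodes Ink4a and ARF, had 19.2, 16.5 and 24.3 FPKM in replicates 1, 3 and 4. A value summed over the gene does not show which exons the reads came from, so it does not check the labelled deletion.

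Of the 10 tetraspanins, 8 had at least 1 FPKM in every replicate, against 44.1% of all genes in the files. *Cd81*, *Cd151*, *Cd63* and *Cd9* had at least 100 FPKM in every replicate, against 2.17% of all genes. The remaining members, *Cd37* and *Cd53*, stayed at or below 0.14 FPKM. The median of the 10 means was 62.6 FPKM (a description of genes chosen by name), beside 0.277 FPKM over all genes. Since the 10 were chosen with earlier results of these data known, these contrasts with all genes are descriptions only. In bulk RNA a low level in every cell cannot be told apart from a high level in a few cells.

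**Figure D1:**
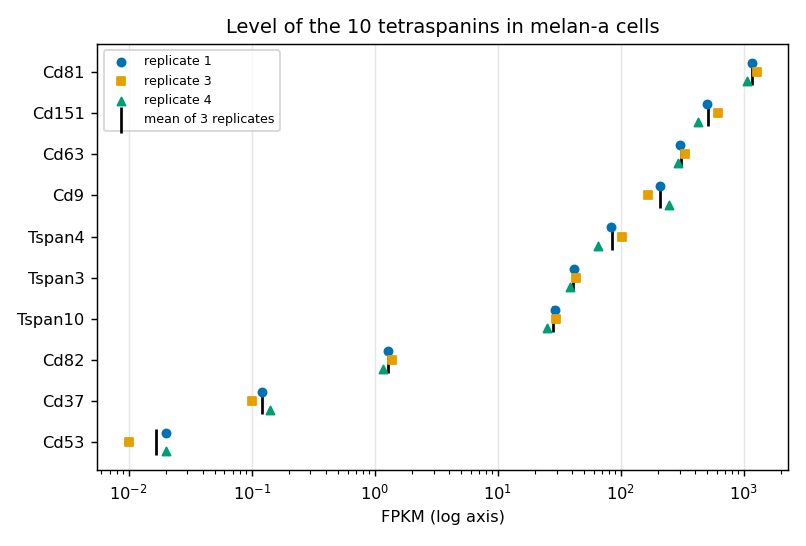
FPKM (log axis) of the 10 tetraspanins in replicates 1, 3 and 4 of melan-a cells, with a bar at the mean of the 3 replicates. *Cd81* lies above 1000 FPKM in every replicate and *Cd53* at 0.01 to 0.02, and the points of neighbouring genes do not overlap.

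*Cd81* (ENSMUSG00000037706) encodes a partner of the EWI proteins of the immunoglobulin superfamily. It spans bases 150238644 to 150253839 of chromosome 7 (mm9, plus strand), and the positions of the other members are given on the same build. Replicates 1, 3 and 4 gave 1167, 1278 and 1052 FPKM (mean 1166 ± 113, SD, n = 3). *Cd81* was the highest of the 10 in every replicate and stood at rank 23 of all 22698 genes.

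*Cd151* (ENSMUSG00000025510), the tetraspanin that binds laminin-receptor integrins most tightly, spans bases 148653261 to 148657378 of the plus strand of chromosome 7. It had 499, 619.9 and 423 FPKM in replicates 1, 3 and 4 (mean 514 ± 99.1, SD, n = 3). Replicate 4 was the lowest and replicate 3 the highest, an order that *Cd81* shared. At rank 74, *Cd151* followed *Cd81* in all 3 replicates.

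*Cd63* (ENSMUSG00000025351), the tetraspanin of late endosomes, lysosomes and melanosome precursors, spans bases 128345975 to 128349872 of the plus strand of chromosome 10. Its level was 304, 335 and 289.8 FPKM in replicates 1, 3 and 4 (mean 309 ± 23.1, SD, n = 3), at rank 149. *Cd9* (ENSMUSG00000030342), which organises adhesion and membrane fusion and takes part in gamete fusion, spans bases 125410284 to 125444809 of the minus strand of chromosome 6. It reached 207, 166 and 245 FPKM in the same replicates (mean 206 ± 39.6, SD, n = 3), at rank 237. *Cd9* was lowest in replicate 3 and highest in replicate 4, the reverse of the order of *Cd63*. The annotation names a copy of each gene, *Cd63-ps* with the type processed transcript and *Cd9-ps* with the type pseudogene. Neither is listed in the files, and reads shared with such a copy could lower or raise the values of *Cd63* and *Cd9*.

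*Tspan4* (ENSMUSG00000025511), a tetraspanin used as a marker of migrasomes on the retraction fibres of migrating cells, spans bases 148661139 to 148679326 of the plus strand of chromosome 7. It had 83.8, 103 and 65.3 FPKM in replicates 1, 3 and 4 (mean 84 ± 18.7, SD, n = 3). On the deposited scale the coefficient of variation, 22.3%, was the highest of the 8 members above 1 FPKM. As a share of the summed level of the tetraspanins, *Cd9* varied more, with 7.77% ± 2.16 beside 3.09% ± 0.416 for *Tspan4* (SD, n = 3). *Tspan4* begins 3760 bases after the end of *Cd151*, on the same strand and with 1 protein-coding gene in between. The last 292 bases of its span are shared with *Chid1* on the opposite strand. Genes on the opposite strand also overlap the spans of *Cd9* (368 bases, *Gm16749*), *Cd81* (948 bases, *R74862*), *Cd82* (10322 bases, *Gm10804*), *Cd151* (410 bases, *Gm10575*) and *Cd37* (4 bases, *Tead2*). Whether the counting used strand is not given in the sources used here, so reads of these overlaps may belong to either gene.

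*Tspan3* (ENSMUSG00000032324), a broadly expressed member, spans bases 55983692 to 56008877 of the minus strand of chromosome 9. It had 41.5, 43.4 and 38.6 FPKM in replicates 1, 3 and 4 (mean 41.2 ± 2.44, SD, n = 3). *Tspan10* (ENSMUSG00000039691) spans bases 120303945 to 120308635 of the plus strand of chromosome 11. Its values were 29.1, 29.6 and 24.9 FPKM (mean 27.9 ± 2.59, SD, n = 3), at rank 2445. *Tspan3* and *Tspan10* were at places 6 and 7 of the 10. Their windows hold TCATGTGA (above), a form added after the windows had been seen, and a link with level was not tested.

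*Cd82* (ENSMUSG00000027215), known as the metastasis suppressor KAI1, spans bases 93259268 to 93303297 of the minus strand of chromosome 2. Its level was 1.28, 1.37 and 1.16 FPKM in replicates 1, 3 and 4 (mean 1.27 ± 0.105, SD, n = 3), at rank 9979. About 207, 193 and 231 reads lay behind these values, which limits counting error only. Per kilobase of the longest transcript the mean would be 2.09 FPKM. *Cd82* was 21.8-fold below *Tspan10* and 9.9-fold above *Cd37*, the widest gaps among the members for which a fold is given. These folds are on the log2(FPKM + 0.01) scale and depend on the value added. With 1 added in place of 0.01, the log2 difference of *Cd82* over *Cd37* fell from 3.31 to 1.02. It was then smaller than that of *Cd9* over *Tspan4*, 1.29, while *Tspan10* over *Cd82* stayed the widest at 3.67.

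*Cd37* (ENSMUSG00000030798) and *Cd53* (ENSMUSG00000040747) are tetraspanins of leukocytes. *Cd37*, on the minus strand of chromosome 7 from 52489002 to 52494485, had 0.12, 0.1 and 0.14 FPKM in replicates 1, 3 and 4, or about 23, 17 and 33 reads. *Cd53*, on the minus strand of chromosome 3 from 106561779 to 106593067, had 0.02, 0.01 and 0.02 FPKM, or about 3, 1 and 4 reads. In these libraries 3 reads on *Cd53* came to 0.0199, 0.0228 and 0.0161 FPKM, so *Cd53* was at the limit of what the depth can show. Of 13 leukocyte markers, none reached 1 FPKM, 7 were at 0 in every replicate, among them *Ptprc* (CD45), *Cd3e* and *Itgam*, and their summed level was 0.89 to 1.21 FPKM. The highest of the 13 were *Laptm5* with 0.5, 0.63 and 0.39 FPKM and *Fcer1g* with 0.61, 0.44 and 0.38 FPKM in replicates 1, 3 and 4. Over all genes in the files, 31.4% were at 0 in every replicate.

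The order of the members by mean level was *Cd81*, *Cd151*, *Cd63*, *Cd9*, *Tspan4*, *Tspan3*, *Tspan10*, *Cd82*, *Cd37* and *Cd53*, and each replicate on its own gave this order. For all 9 pairs of neighbours the higher gene was higher in 3 of 3 replicates and the ranges of the 2 genes did not overlap. The pairs were set by the means of these same replicates, which favours this direction, and no such count was made over all genes. The difference of log2(FPKM + 0.01) was 1.19 ± 0.14 for *Cd81* over *Cd151* and 0.72 ± 0.17 for *Cd151* over *Cd63* (SD, n = 3). It was 0.60 ± 0.39 for *Cd63* over *Cd9*, with 0.55, 1.01 and 0.24 in replicates 1, 3 and 4. *Cd9* over *Tspan4* gave 1.30 ± 0.61, the least even difference between replicates, and *Tspan3* over *Tspan10* gave 0.56 ± 0.06. An exact two-sided sign-flip permutation test over 3 replicates cannot go below p = 0.25, and every pair of neighbours reached that value. The order is therefore a description and none of these differences can pass a threshold of 0.05.

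**Figure D2:**
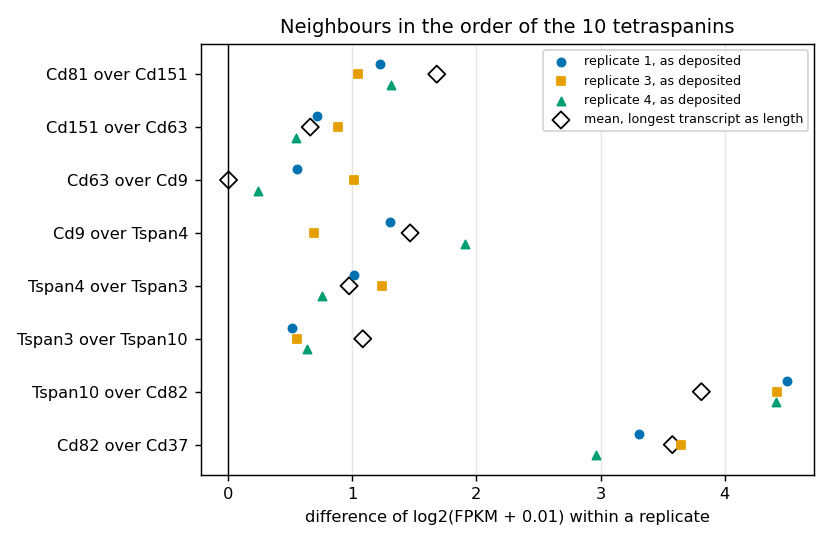
Difference of log2(FPKM + 0.01) between neighbours in the order (*Cd37* over *Cd53* left out for the few reads behind *Cd53*), as 1 point per replicate, with an open diamond for the mean when each gene's value is recomputed for its longest annotated transcript. All points of the deposited values lie above 0, and the diamond of *Cd63* over *Cd9* lies at 0.00.

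The place of *Cd63* above *Cd9* depended on the gene length. Low values of genes with several transcripts fell closer to whole reads when the length was that of the joined exons than when it was that of the longest transcript. For *Cd63* the joined exons measure 1031 bases and the longest transcript 938, and for *Cd9* 2044 and 1228. Computed per kilobase of the longest transcript, *Cd63* would have 340.1 ± 25.4 FPKM and *Cd9* 343 ± 65.9 (SD, n = 3), and *Cd63* would be the higher of the pair in 1 of 3 replicates. The other 8 neighbouring pairs kept their direction in every replicate under this length.

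*Cd9* also differed from the other abundant members in how it varied between libraries. The order of the replicates was 3, 1, 4 from high to low for 7 members and 4, 1, 3 for *Cd9* and *Cd37*. All 7 members with the order 3, 1, 4 were above 1 FPKM, so that 87.5% of the 8 members above 1 FPKM had it, against 70% of the 10 other tetraspanins above 1 FPKM and 39.5% of 10011 genes. When each replicate was rescaled to the same sum, which moved the median difference of all genes between replicates 3 and 4 from 0.02 to -0.12 on the log2 scale, these shares were 62.5%, 50% and 27.3%. Higher in replicate 3 than in replicate 4 were 7 of the 8 members and 8 of the 10 other tetraspanins, against 51.3% of all genes, and 7, 7 and 39.4% after rescaling. Between replicates 3 and 4 the difference of log2(FPKM + 0.01) was 0.65 for *Tspan4*, 0.55 for *Cd151*, 0.28 for *Cd81* and 0.21 for *Cd63*, and -0.56 for *Cd9*. GC content of the longest coding transcript was 58.1% for *Tspan4*, 54.8% for *Cd151*, 52.3% for *Cd81*, 49.3% for *Cd63* and 45.9% for *Cd9*. Among all genes above 1 FPKM whose transcripts were within 1 percentage point of the same GC content, the median difference was 0.42 for *Tspan4*, 0.27 for *Cd151*, 0.13 for *Cd81*, -0.07 for *Cd63* and -0.26 for *Cd9*. *Tspan3*, with a GC content of 46.1%, differed by 0.17, beside a median of -0.26 for such genes. The 2 genes with nearly equal GC content, *Cd9* and *Tspan3*, differed between these replicates in opposite directions. Of the members above 1 FPKM, 6 of 8 lay above the median of genes of the same GC content, and of the other tetraspanins 8 of 10. The part of GC content in the differences between replicates was not tested.

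**Figure D3:**
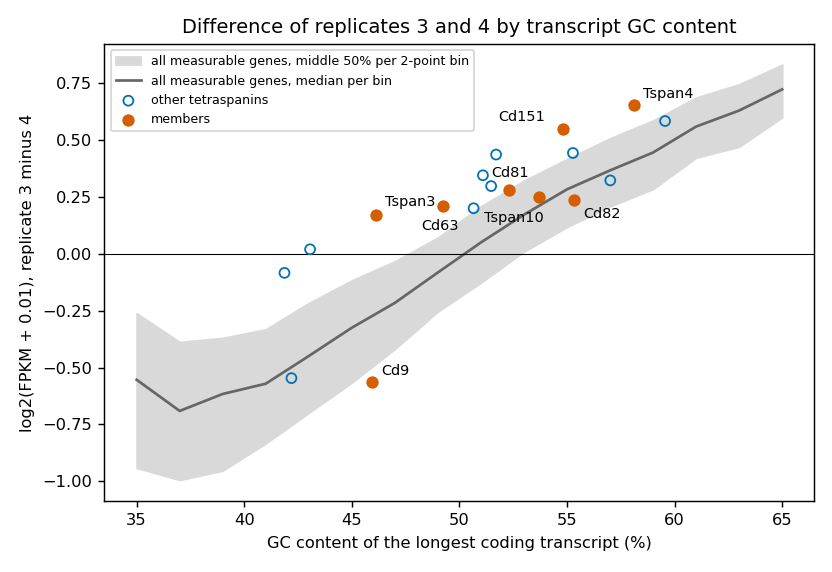
Difference of log2(FPKM + 0.01) between replicates 3 and 4 against the GC content of the longest coding transcript, for the 8 members (filled) and the 10 other tetraspanins (open) above 1 FPKM in every replicate. The line and band give the median and the middle 50% of all such genes per bin of 2 percentage points, and *Cd9* lies at -0.56 while *Tspan3*, at nearly the same GC content, lies at 0.17.

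The spread of the members beside that of other genes depended on the scaling. The SD of log2(FPKM + 0.01) had a median of 0.14 over the 8 members above 1 FPKM and 0.16 over 10011 genes. It was 0.07 against 0.16 when each replicate was rescaled to the same sum, and 0.06 against 0.16 when mitochondrial genes were left out of that sum. On the deposited scale *Tspan3* varied least, with an SD of 0.09. This was above 29.1% of the others among the 200 genes nearest to its level, itself counted. *Tspan4* varied most, with 0.33, above 91% of the others in its set of 200, counted in the same way.

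A further 21 mouse tetraspanins were listed beside the 10, and 10 of them (47.6%) had at least 1 FPKM in every replicate, a share near the 44.1% of all genes. *Tspan31*, a gene first known from amplification in sarcoma, was the highest of them with 131, 146 and 127 FPKM in replicates 1, 3 and 4, and took the place between *Cd9* and *Tspan4*. *Tspan17* followed with a mean of 57.6 ± 11.4 FPKM, *Tspan7* with 54.7 ± 1.2 and *Tspan14* with 50.6 ± 5.51 (SD, n = 3). These 3 genes overlapped in their ranges and changed places between replicates. On the deposited scale *Tspan7* varied least of all tetraspanins above 1 FPKM, with a coefficient of variation of 2.2%. This place depended on the scale. As a share of the summed level of the 31 genes, *Tspan7* had 2.04% ± 0.176, less even than *Tspan14* with 1.87% ± 0.0478 (SD, n = 3). *Cd82* stood at place 18 of 31, its lowest value at 1.16 FPKM just above the highest value of *Tspan12*, 1.1 FPKM. *Cd37*, *Tspan33* and *Tspan18* could not be separated, with ranges of 0.1 to 0.14, 0.08 to 0.14 and 0.08 to 0.11 FPKM. *Tspan8*, *Tspan11* and the urothelial *Upk1b* were at 0 in every replicate, and *Tspan1* and the photoreceptor gene *Prph2* were above 0 in 1 replicate each, at 0.01 FPKM. *Rom1*, the partner of *Prph2* in photoreceptor discs, had 5.06, 5.53 and 4.42 FPKM. Among the 30 pairs of neighbours in the order of all 31 genes, the ranges of 16 did not overlap.

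**Figure D4:**
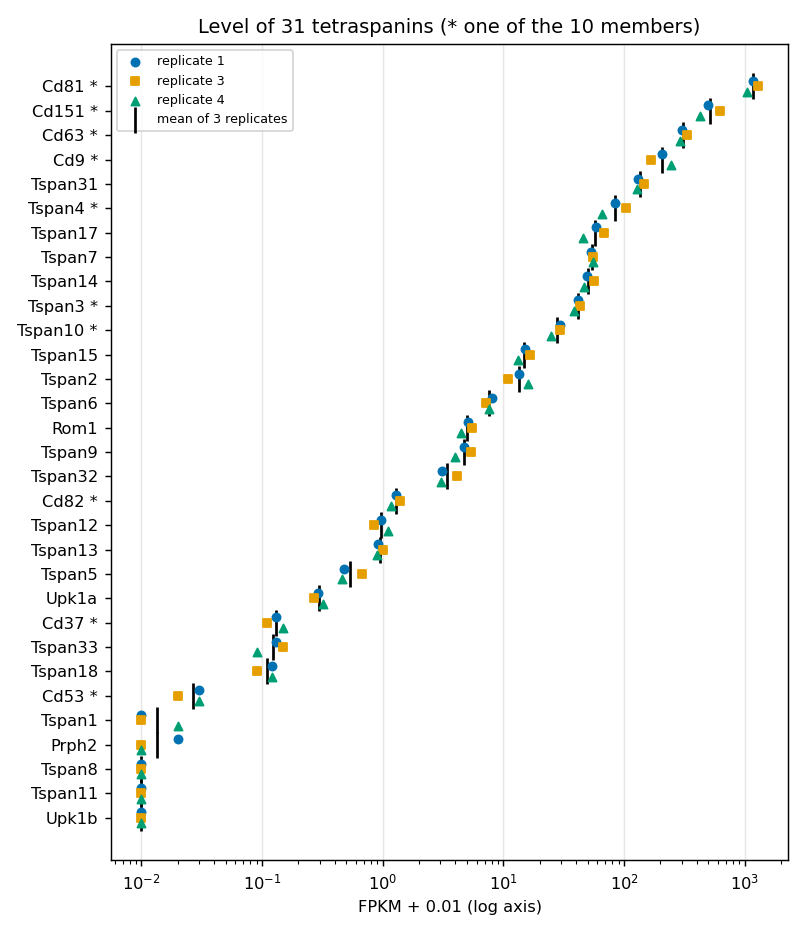
FPKM + 0.01 (log axis) of 31 tetraspanins in replicates 1, 3 and 4, with a bar at the mean and an asterisk at the 10 members. The highest gene outside the 10 is *Tspan31* at 127 to 146 FPKM, and 3 genes are at 0 in every replicate.

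The summed level of the 31 tetraspanins was 2699 ± 246 FPKM (SD, n = 3), or 0.714% of the summed FPKM of all genes. *Cd81* made up 43.2% ± 0.468 of it, *Cd151* 18.9% ± 1.91, *Cd63* 11.5% ± 0.241 and *Cd9* 7.77% ± 2.16 (SD, n = 3). These 4 genes together gave 81.3% and the 10 members 87%. The share of *Cd81* lay between 42.7% and 43.6% in the 3 replicates while that of *Cd9* ran from 5.62% in replicate 3 to 9.95% in replicate 4. *Cd81* is itself a large part of the sum, which narrows the range of its share, and its level ran from 1052 to 1278 FPKM.

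*Tspan10* belongs to the TspanC8 group, whose members escort the protease ADAM10 to its site of action. *Adam10* itself had 121, 97.1 and 143 FPKM in replicates 1, 3 and 4 (mean 120 ± 22.9, SD, n = 3). Of the 6 genes of the group, 4 were above 1 FPKM in every replicate, against 44.1% of all genes in the files. *Tspan17* made up 37.8%, *Tspan14* 33.5%, *Tspan10* 18.5% and *Tspan15* 9.84% of the summed level of the group. *Tspan5* (mean 0.527 FPKM) and *Tspan33* (mean 0.113 FPKM) made up the rest. The ranges of *Tspan17* and *Tspan14* overlapped, and *Tspan10* lay below both and above *Tspan15* in 3 of 3 replicates.

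Genes of other proteins known to bind or act with tetraspanins were examined as a list of 23, chosen with earlier results of these data known. Of 6 integrin genes all were above 1 FPKM, against 44.1% of all genes in the files. The highest were *Itgb1* (mean 453 ± 40.8 FPKM), the common beta chain, and *Itga6* (75 ± 3.82), a laminin-receptor chain that binds CD151. Of further chains of laminin receptors, *Itga3* had 43.5 ± 11.2 FPKM, *Itga7* 19.2 ± 4.21 and *Itgb4* 2.57 ± 0.365 (SD, n = 3). Of the EWI proteins that bind CD9 and CD81, *Igsf8* had 40.3, 47 and 28.1 FPKM and *Ptgfrn* 0.79, 0.82 and 0.57 FPKM in replicates 1, 3 and 4. *Cd81* lay above both of these partners in every replicate, and *Cr2*, a complement receptor, was at 0 in every replicate.

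All 5 sorting genes were above 1 FPKM, against 44.1% of all genes in the files. *Sdcbp* (syntenin), which links CD63 to exosome formation, had 92.7 ± 3.15 FPKM and *Hgs* 52.4 ± 7.3 (SD, n = 3). *Pdcd6ip* (ALIX) had 49.9 ± 3.38, *Tsg101* 31.2 ± 0.585 and *Ap3m1*, the AP-3 subunit that recognises the tail of CD63, 9.62 ± 2.14 FPKM (SD, n = 3). The melanosome proteins *Pmel* (576 ± 57.2) and *Mlana* (578 ± 52.2) lay above *Cd63*, and *Apoe*, which acts with CD63 on PMEL fibrils, had 125 ± 15.9 FPKM (SD, n = 3). *Bace2*, the protease that cleaves PMEL, had 8.9 ± 0.31, *Timp1*, a ligand of CD63, 67.2 ± 4.2 and *Hbegf*, the growth factor held by CD9, 8.59 ± 0.535 FPKM (SD, n = 3). *Zdhhc2*, which palmitoylates CD9 and CD151, had 4.72 ± 0.162 FPKM, and *Ifitm1* was above 0 in replicate 4 alone, at 0.01 FPKM.

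**Figure D5:**
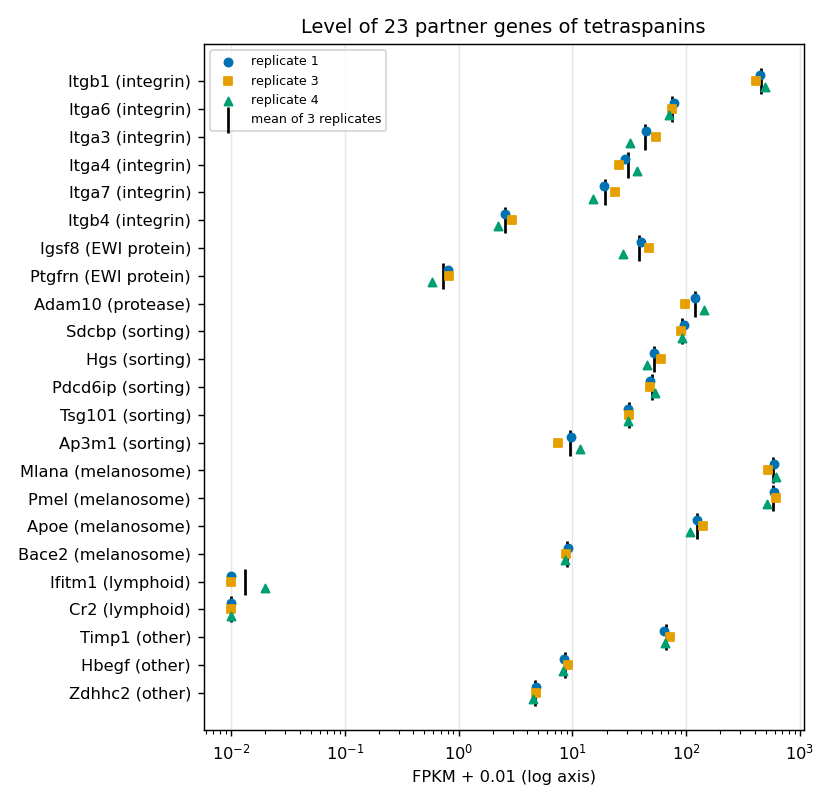
FPKM + 0.01 (log axis) of 23 partner genes of tetraspanins, by kind of partner, in replicates 1, 3 and 4, with a bar at the mean. *Mlana*, *Pmel* and *Itgb1* are the highest, above 400 FPKM in every replicate, and *Cr2* lies at 0.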

How the data were processed

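RNA was sequenced from 3 replicates of melan-a cells. The authors deposited 1 FPKM value per gene and replicate, adjusted by TMM and given to 2 decimals. Stranded mRNA libraries were run over several lanes each, the first bases of each read were trimmed, and reads were aligned to mm9 with STAR 2.3.0e, freed of rRNA with RSeQC and counted with htseq-count 0.5.3p3 on Ensembl transcripts. The submitters' processing notes also name CASAVA 1.8.2, SAMtools and edgeR. The step from counts to FPKM and the strand setting are not given in the sources used here. Reads of overlapping or near-identical genes may therefore be misassigned.

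Positions, exon lengths and GC content came from GENCODE M1 (mm9, Ensembl release 65), which holds 22324 of the 22698 genes. The paper counted reads on a later Ensembl release, so the gene lengths behind the FPKM may differ from these. Scaled library sizes of 53800000, 47000000 and 66300000 reads were those at which FPKM times length came closest to whole reads over 162, 191 and 101 single-transcript genes, with a mean distance of 0.0513, 0.0539 and 0.0614 reads. For genes with several transcripts the distance was 0.0525 to 0.0735 reads with joined exons (4 to 10 genes) and 0.15 to 0.209 with the longest transcript (4 to 20 genes). Read numbers per gene are estimates from these sizes, and limits of 3 reads cover counting error only.

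Levels are means ± SD over replicates. The design allowed no comparison of conditions, and neighbouring genes were compared within replicates on log2(FPKM + 0.01) by an exact sign-flip permutation test. The replicates are described as bioreplicates of the same line, but separate cultures are not stated, so the spread and p-values may measure technical variation. Genes named were the members, the other tetraspanins, partners and markers on lists, and the 3 genes nearest to *Cd81* and *Tspan10* in log2 level. A gene of the partner and leukocyte lists is not reported here. Members and lists were chosen with earlier results of these data known. *Tspan18* matched 2 identifiers, and the one with the higher value was used. Promoter windows came from RefSeq (GRCm38.p6). Alternatives were each replicate left out, medians, other pseudocounts and thresholds, rescaled values and other denominators, and, chosen after seeing the data, the longest transcript as length and values centred on genes of similar GC content. The scripts were tested on simulated data. Python 3.11.15 was used with numpy 2.4.6, pandas 2.3.3 and matplotlib 3.10.9.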

Additional observations from a re-analysis of the deposited data

How the results depend on the processing

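Of the alternatives, only the transcript length and the GC centring could turn a pair of neighbours within a replicate, since rescaling, pseudocounts and leaving out a replicate keep the order of genes in each library. With the longest transcript 8 of 9 pairs kept their direction in every replicate and 2 members, *Cd63* and *Cd9*, changed places, and with GC centring 9 of 9 did. Leaving out 1 replicate, the median of the members' means ran from 57.3 to 67.9 FPKM and the share of *Cd81* from 43 to 43.4%. The median level moved to 165 when each replicate was rescaled to the same sum, to 184 when rescaled without mitochondrial genes, both of which change the unit, and to 93.7 FPKM with the longest transcript. The share of *Cd81* moved to 48.9% with the longest transcript and to 49.6% when only the 10 members were summed. Of the alternative values for single genes and pairs, 130 moved by less than 1 SD and 40 by more. These counts include pair values that repeat the deposited ones, as with the order by median FPKM. They also include levels that moved with the unit under the rescalings. No mean log2 difference changed sign, but that of *Cd63* over *Cd9* fell to 0.003 with the longest transcript. It was then positive in 1 of 3 replicates. At least 0.5 FPKM was reached by 8 members, 12 other tetraspanins and 47.0% of all genes, and at least 5 FPKM by 7, 7 and 30.8%. After rescaling to the same sum 13 other tetraspanins were at 1 or more. The median SD of the members fell from 0.14 to 0.07 and 0.06 under the rescalings. No fit of conditions with a replicate block could be made, since the samples form 1 group. The depth limits *Cd53* and the tetraspanins at 0 or 0.01 FPKM.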

Other observations

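The genes nearest to *Cd81* in level, by the Euclidean distance of log2(FPKM + 0.01) over the 3 replicates, were *Pfn1* with 1073, 1228 and 1008 FPKM in replicates 1, 3 and 4, *Gpnmb* with 1213, 1262 and 1174, and *Aldoa* with 1293, 1514 and 1097. Profilin 1, encoded by *Pfn1*, regulates actin assembly, *Gpnmb* encodes a melanosomal glycoprotein related to PMEL, and *Aldoa* encodes a glycolytic aldolase. The genes nearest to *Tspan10* were *Itgb3*, an integrin beta chain, with 29, 29.6 and 24.7 FPKM, *Prcc* with 29.4, 29.9 and 25.1, and *2310028H24Rik* with 28.5, 29.5 and 24.7. These distances rest on 3 libraries and describe similar levels.

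Among the 31 tetraspanins, chromosome 7 holds 6 and chromosome 6 holds 5. *Cd81* begins 33094 bases after the end of *Tspan32* on the same strand of chromosome 7 with no protein-coding gene in between, and their means were 1166 and 3.42 FPKM. *Cd82* and *Tspan18* lie 84605 bases apart on chromosome 2, also with none in between, and both were low, at 1.27 and 0.1 FPKM. *Cd151* and *Tspan4*, at 514 and 84 FPKM, are closer to each other than any other pair on the list.

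Centring on genes of similar GC content lowered the SD of the log2 difference in 5 of 9 neighbouring pairs and raised it in 4. Once each value was centred on genes of similar GC content, the SD of the log2 difference between neighbours fell from 0.17 to 0.01 for *Cd151* over *Cd63* and from 0.61 to 0.27 for *Cd9* over *Tspan4*, and rose from 0.06 to 0.20 for *Tspan3* over *Tspan10* (n = 3 each). The centring keeps the mean over replicates nearly unchanged by construction. This centring was chosen after seeing the data.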
